A study of Mus musculus with 3 samples.

Results

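The tropomyosin genes (Tpm1, Tpm2, Tpm3 and Tpm4) and the alpha-actinin genes (Actn1, Actn2, Actn3 and Actn4) were followed in c2c12, a mouse myoblast cell line whose cells differentiate and fuse into multinucleated myotubes. These 8 genes were chosen by symbol, 4 in each family, out of the 23238 gene symbols in the count files. The cells had been moved from growth medium to a low-serum myogenic induction medium and were harvested on day 2. They lay on tissue culture plastic (TCP), on a hydrogel of methacrylated gelatin (GelMA, 15%), or on the same hydrogel with 1% poly(sodium-4-styrenesulfonate) (GelMA-PSS), a negatively charged polymer that mimics heparin. The design has 1 RNA-seq library for each of these 3 substrates. All groups share the cell line and the medium, so TCP and GelMA serve as the controls for GelMA-PSS, and GelMA against TCP shows how far the control substrates themselves lay apart. With 1 library per substrate, none of the differences could be set against replicate spread, and they are given without tests. As RNA of many cells together was sequenced, fewer cells of a type and less RNA per cell cannot be told apart.

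Tropomyosins are coiled-coil proteins that lie end to end along actin filaments. In sarcomeres they hold troponin and gate the access of myosin to actin, and in the cytoskeleton they help to define distinct populations of actin filaments, such as those of stress fibres. Alpha-actinins are antiparallel dimers that crosslink actin filaments. Actn2 and Actn3 encode the sarcomeric forms, which anchor thin filaments in the Z-disc, the border between neighbouring sarcomeres, whereas Actn1 and Actn4 encode the non-muscle forms of stress fibres, focal adhesions and cell junctions. Tpm4 encodes a cytoskeletal tropomyosin. Tpm1, Tpm2 and Tpm3 each give muscle and non-muscle proteins by alternative promoters and splicing, and counts per gene symbol, as deposited, do not separate these transcripts.

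The members are dispersed in the genome. In the GENCODE vM21 annotation of GRCm38, the tropomyosin genes lie on chromosome 9 from 67022590 to 67049406 (Tpm1), on chromosome 4 from 43514711 to 43523765 (Tpm2), on chromosome 3 from 90072649 to 90100902 (Tpm3) and on chromosome 8 from 72134975 to 72153142 (Tpm4). The alpha-actinin genes lie on chromosome 12 from 80167547 to 80260371 (Actn1), on chromosome 13 from 12269426 to 12340760 (Actn2), on chromosome 19 from 4861216 to 4877909 (Actn3) and on chromosome 7 from 28893248 to 28962340 (Actn4). GENCODE lists 16 coding transcripts for Tpm1, 7 for Tpm3 and 4 for Tpm2, but 1 for Tpm4 and 1 for Actn3. The coding sequences of the tropomyosins were 71.9% to 77.8% identical to one another over the aligned bases, and those of the alpha-actinins 75.3% to 80.4%. The longest runs that 2 members share bear on whether reads could be counted for the wrong paralog, and the longest in each family are printed here.
Actn1 and Actn4 (coding bases 1021 to 1085 and 1081 to 1145): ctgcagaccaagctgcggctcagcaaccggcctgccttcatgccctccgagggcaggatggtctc
Actn2 and Actn3 (coding bases 1003 to 1053 and 1021 to 1071): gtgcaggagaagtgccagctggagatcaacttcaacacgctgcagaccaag
Tpm1 and Tpm2 (coding bases 1 to 35 in both, from the start codon): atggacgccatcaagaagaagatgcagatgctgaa
The run of Actn1 and Actn4 has 65 bases, that of Actn2 and Actn3 51 and that of Tpm1 and Tpm2 35, all shorter than the sequencing reads. No window of a read's length in any coding transcript of a member occurred in a transcript of another member. Of such windows, 27.4% of those of Tpm3 also occurred in the retrogene Tpm3-rs7, 9.27% of those of Tpm4 in an antisense transcript or a pseudogene, 6.92% of those of Actn1 in an antisense transcript and 4.9% of those of Actn4 in Capn12, on the opposite strand. For Tpm1, Tpm2, Actn2 and Actn3 there were 0 such windows. How the authors' counting treated reads with several positions is not given in the sources used here, which bears most on the counts of Tpm3.

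RefSeq promoter entries (GRCm38.p6) were matched for 7 of the 8 members, all except Actn3. The sequences upstream of Actn2 and Tpm4 are printed because these genes differed most between the substrates. Capitals mark the letters CANNTG, the general E-box of basic helix-loop-helix factors, with any base at N. The letters do not tell which of these factors could bind. Bases inside annotated exons of the same gene were left off. The stretch of Tpm4 lies within the bounds that GENCODE gives the gene, outside its exons.
Actn2, chr13:12340761-12340982, minus strand, 5′ to 3′: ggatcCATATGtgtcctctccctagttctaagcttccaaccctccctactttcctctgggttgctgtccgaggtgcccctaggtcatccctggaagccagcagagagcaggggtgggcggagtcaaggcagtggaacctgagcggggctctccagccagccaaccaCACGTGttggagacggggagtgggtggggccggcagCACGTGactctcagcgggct
Tpm4, chr8:72135050-72135258, plus strand, 5′ to 3′: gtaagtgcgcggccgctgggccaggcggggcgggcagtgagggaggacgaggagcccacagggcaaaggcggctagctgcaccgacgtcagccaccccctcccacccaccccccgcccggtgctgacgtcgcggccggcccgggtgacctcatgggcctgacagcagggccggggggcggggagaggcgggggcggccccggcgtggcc
In the 250 bases before its start site, Actn2 held 3 matches to CANNTG, which reads the same on both strands. They were CATATG, with its first base at -245, and CACGTG at -84 and at -48. Of 32851 mouse promoter windows of the same length, 12.2% held 3 or more, and 66.2% held at least 1. The window of Tpm4 held none, as did 33.8% of all windows, and each window of Tpm1, Tpm2, Tpm3, Actn1 and Actn4 held 1. The MCAT letters CATTCC, read on both strands, occurred upstream of Tpm1 and Actn4 and in 12.6% of all windows. A CArG box or a MEF2 site was found in 0 of the 8 windows of the members, against 1.47% and 2.92% of all windows. These matches describe letters in a window and say nothing of binding.

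Between 87071144 (GelMA) and 192171443 (GelMA-PSS) counts were deposited per library, with 119799095 on TCP, and each member was measured with 19700 to 439511 counts. Levels are given as CPM, that is, counts relative to the library total, scaled with TMM factors, which align the libraries on the bulk of their genes. All ratios are differences of log2(CPM + 1). The 95% intervals given below are Wilson intervals for CPM and Poisson intervals for ratios, and they cover counting error only. All 8 members were among the 13169 genes tested, that is, genes that reached a CPM of 1 in any library. Myoblast and myotube markers were present throughout, with a CPM of 2863 to 3299 for the intermediate filament gene Des and of 895 to 1100 for Myog, while the endothelial, leukocyte, adipocyte, epithelial and neural lists each summed to a CPM of at most 10.2, the highest being the epithelial list on TCP, in which Cdh1 made up nearly all. The leukocyte genes Ptprc and Cd3e had 0 counts on TCP and GelMA and 4 counts each on GelMA-PSS. The 4 myotube markers found in the files (Myog, Ckm, Myh3 and Acta1) summed to 18015 on TCP, 13060 on GelMA and 9512 on GelMA-PSS, and the 5 myoblast markers to 4087, 3608 and 3987. The myoblast sum was mostly Des, and its other genes did not share a direction. The myogenic factor Myf5 had 13.9, 19.5 and 36.5 and Myod1 94.3, 105 and 119, the order of Tpm4, whereas the satellite cell factor Pax7 had 11.2, 10.5 and 6.01. Most of the fall in the myotube sum was Myh3, the embryonic myosin heavy chain, with 10182, 6355 and 3037, whereas Myog had 1100, 895 and 1037. The summed myotube markers thus moved in the same order as Actn2, and their part in the result was not tested. Transcript length moved with the ratios as well. Across 13060 genes, Spearman's rho between length and the log2 ratio was -0.66 between GelMA-PSS and GelMA, -0.50 between GelMA-PSS and TCP and 0.21 between GelMA and TCP, as a description across genes of the same libraries. Ratios are therefore also given after a loess correction for transcript length and GC content.

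Across the substrates, Tpm4 and Actn2 stood out from the other members in opposite directions. Tpm4 was highest on GelMA-PSS and Actn2 lowest, and in both the GelMA library lay between the others. Against TCP, Tpm4 was 2.23-fold higher and Actn2 3.28-fold lower on GelMA-PSS. The other 6 members differed by less than 1.5-fold in every contrast with TMM scaling, but Tpm2 passed it on GelMA-PSS against TCP with total counts (log2 ratio -0.66), with the correction (-0.63) and with TPM relative to the median of all genes (-0.65).

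**Figure D1:**
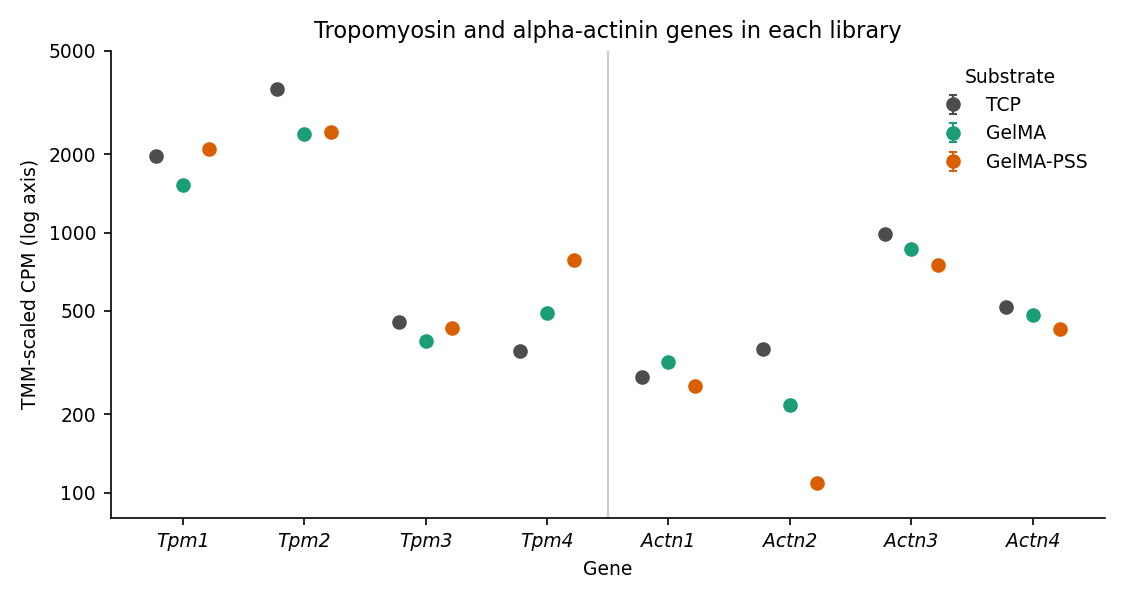
TMM-scaled CPM of the 8 genes (log axis) in the TCP, GelMA and GelMA-PSS libraries, 1 point per library, with 95% counting intervals that are mostly smaller than the points. Tpm4 climbs from 350.4 on TCP to 782 on GelMA-PSS, and Actn2 descends from 357.5 to 109.

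Of the tropomyosins, Tpm4 had a CPM of 350.4 on TCP (95% interval 347 to 354), 489.5 on GelMA (485 to 494) and 782 on GelMA-PSS (778 to 786). The libraries thus rose in the order TCP, GelMA, GelMA-PSS, as in 22.5% of all genes tested, and the intervals did not overlap. On the log2 scale GelMA-PSS exceeded GelMA by 0.68 and TCP by 1.16, and GelMA exceeded TCP by 0.48. Among the 13169 genes tested, 278 had a higher ratio of GelMA-PSS against TCP than Tpm4. Corrected for length and GC content, these differences were 0.42, 0.96 and 0.53, so that Tpm4, with a transcript of 2128 bases, then fell short of 2-fold against TCP.

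Tpm2, which encodes beta-tropomyosin, had a CPM of 3559 on TCP, 2386 on GelMA and 2426 on GelMA-PSS. Both hydrogels lay at about the same level, below TCP. The log2 ratio of GelMA-PSS against GelMA was 0.02, which became -0.12 with total counts and -0.10 with the correction, whereas those against TCP were -0.55 for GelMA-PSS and -0.58 for GelMA. Tpm2 was the tropomyosin whose ratio between GelMA and TCP lay lowest, with 296 of the 13169 genes below it. Tpm1, which encodes alpha-tropomyosin, had a CPM of 1968 on TCP, 1529 on GelMA and 2098 on GelMA-PSS. GelMA was lowest, and GelMA-PSS was 1.37-fold above it, near the level of TCP. The log2 ratio of Tpm1 on GelMA-PSS was 0.46 against GelMA, or 0.18 after the correction, and 0.09 against TCP, which became -0.02 with total counts and -0.11 with the correction. Tpm3, the source of the slow-fibre tropomyosin and of widely expressed cytoskeletal forms, had a CPM of 452 on TCP, 384 on GelMA and 431 on GelMA-PSS. Its log2 ratios of 0.16, -0.07 and -0.23, for GelMA-PSS against GelMA, GelMA-PSS against TCP and GelMA against TCP, were small, and the first became -0.03 with the correction. For the 4 genes as a family, the median log2 ratio was 0.31, 0.01 and -0.30 in the same order of contrasts, beside 0.03, 0.04 and -0.01 for all genes tested. The median against GelMA was smaller with total counts (0.16) and with the correction (0.075). The median against TCP turned negative with total counts (-0.10) and with the correction (-0.16), so no direction is given for the family in that contrast. Tpm1 and Tpm4 were the members higher on GelMA-PSS than in both controls, 2 of 8, against 45.3% of all genes.

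Of the sarcomeric alpha-actinins, Actn2 had a CPM of 357.5 on TCP (95% interval 354 to 361), 217 on GelMA (214 to 220) and 109 on GelMA-PSS (107.5 to 110.5). Each step down exceeded the counting error. The log2 ratio between GelMA-PSS and TCP was -1.70, that between GelMA-PSS and GelMA -0.99, and that between GelMA and TCP -0.72. Against TCP, 39 of the 13169 genes had a lower ratio, against GelMA 324 did, and between the controls 144. The difference from GelMA, 1.99-fold, lay at the edge of the 2-fold threshold, with a counting interval of -1.01 to -0.96 on the log2 scale. The transcript of Actn2, with 3013 bases, is close to the median of 2914 bases, and the correction moved its ratios little, to -1.68 against TCP, -0.95 against GelMA and -0.71 between the controls. Actn3, the alpha-actinin of fast fibres, had a CPM of 989 on TCP, 861.5 on GelMA and 752 on GelMA-PSS. Its libraries followed the same order as those of Actn2, over a narrower range. On the log2 scale Actn3 was at -0.40 on GelMA-PSS relative to TCP, and each of its steps, TCP to GelMA and GelMA to GelMA-PSS, was -0.20.

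The non-muscle alpha-actinins varied less than Actn2. Actn4 had a CPM of 515 on TCP, 480 on GelMA and 426 on GelMA-PSS, with log2 ratios of -0.27 to TCP and -0.17 to GelMA on GelMA-PSS. After the correction these were -0.16 and -0.03. Actn2, Actn3 and Actn4, 3 of the 8 members, thus fell in the order TCP, GelMA, GelMA-PSS, as did 21.2% of all genes. Actn1 had a CPM of 278 on TCP, 317 on GelMA and 257 on GelMA-PSS, and was the only alpha-actinin that was higher on GelMA than on TCP, with a log2 ratio of 0.19. On GelMA-PSS it was lower than on GelMA by 1.23-fold and than on TCP by 1.08-fold. Over the 4 alpha-actinins the median log2 ratio was -0.25 between GelMA-PSS and GelMA, -0.33 between GelMA-PSS and TCP and -0.15 between GelMA and TCP. Corrected, these medians were -0.18, -0.26 and -0.15. All 4, and so 4 of the 8 members, were lower on GelMA-PSS than in both controls, as were 39.3% of all genes tested. After the correction the log2 ratios of Actn1 against TCP (-0.02) and of Actn4 against GelMA (-0.03) were close to no difference.

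**Figure D2:**
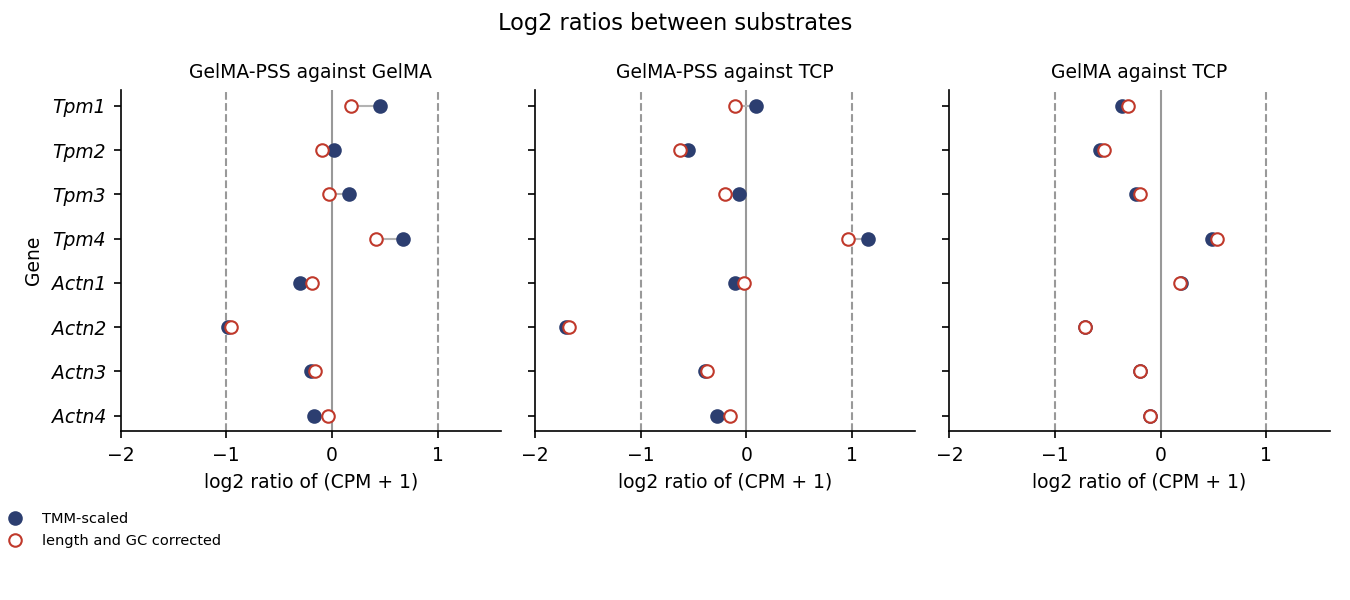
Log2 ratios of (CPM + 1) of the 8 genes in the 3 contrasts, with TMM scaling (filled) and after correction for transcript length and GC content (open); dashed lines mark 2-fold. Actn2 lies at -1.70 against TCP and barely moves with the correction, whereas Tpm4 moves from 1.16 to 0.96.

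Counted against a threshold of 2-fold, 2 of the 8 members differed between GelMA-PSS and TCP, Tpm4 (higher) and Actn2 (lower). Of all genes tested, 6.85% passed in that contrast, with 3.72% higher and 3.13% lower. Between GelMA-PSS and GelMA 0 members passed, against 4.10% of all genes (1.77% higher and 2.33% lower), and between GelMA and TCP 0 passed, against 1.00% (0.706% higher and 0.296% lower). No member passed 2-fold against both controls, as 1.37% of genes did upwards and 1.16% downwards. With the lower threshold of 1.5-fold, Tpm4 was higher and Actn2 lower than in both controls, which held for 8.08% and 7.18% of all genes. At that threshold 2 members passed between GelMA-PSS and GelMA, against 21.8% of all genes (11.0% higher and 10.8% lower), and the same 2 between GelMA-PSS and TCP, against 24.7% (13.2% higher and 11.5% lower). Between GelMA and TCP Actn2 passed, being lower on GelMA, against 5.62% of all genes (3.50% higher and 2.12% lower). The contrasts share libraries and are not independent of one another. The balance of calls over all genes depended on the scaling. Between GelMA-PSS and GelMA, 233 genes were higher and 307 lower by 2-fold with TMM factors, but 120 and 506 with total counts only, and between GelMA-PSS and TCP 490 and 412 became 338 and 576. With total counts the ratio of Actn2 against GelMA was -1.13 and passed the threshold.

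**Figure D3:**
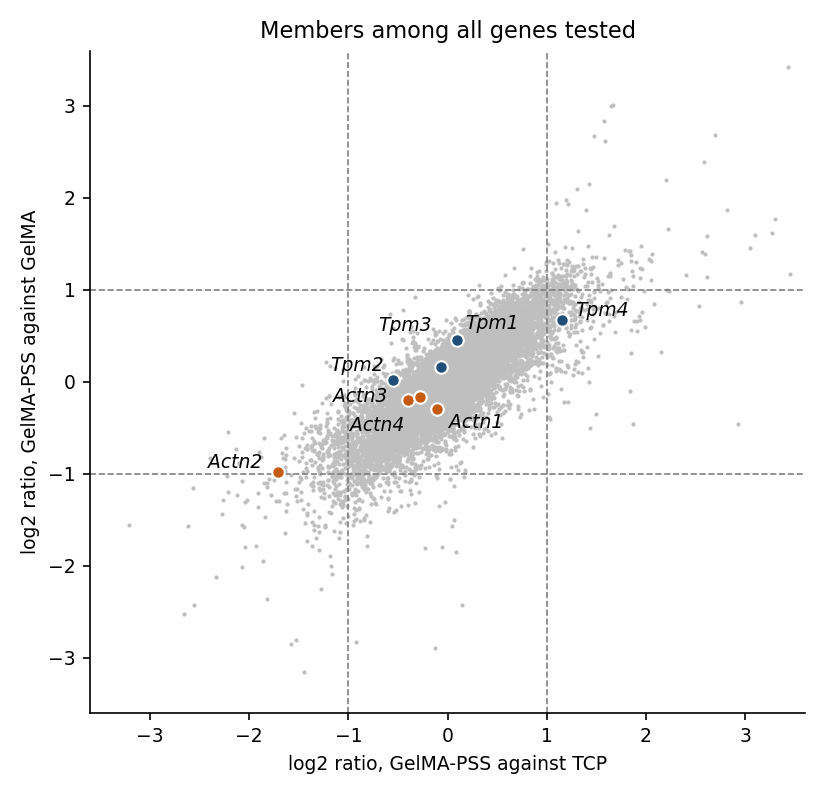
Log2 ratio of GelMA-PSS against TCP (x axis) and against GelMA (y axis) for the 13169 genes tested (grey), with tropomyosins in blue and alpha-actinins in orange; dashed lines mark 2-fold and 6 genes lie outside the axes. Actn2 and Tpm4 lie past 2-fold on the x axis only, and the other 6 members lie within 1.5-fold on both axes with this scaling.

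Shares within a family, which do not depend on the scaling between libraries, showed how the composition differed. Tpm4 made up 5.54% of the tropomyosin counts on TCP (95% Wilson interval 5.49 to 5.59), 10.2% on GelMA (10.1 to 10.3) and 13.6% on GelMA-PSS (13.6 to 13.7). The share of Tpm2 ran in the opposite direction, from 56.2% on TCP through 49.8% on GelMA to 42.3% on GelMA-PSS. Tpm1 took 31.1%, 31.9% and 36.6%, and Tpm3 stayed between 7.15% and 8.03%. Tpm2 counts outnumbered those of Tpm4 by 10.2 to 1 on TCP, 4.87 to 1 on GelMA and 3.10 to 1 on GelMA-PSS. The log2 difference of this ratio was -1.71 between GelMA-PSS and TCP (95% counting interval -1.73 to -1.69), -1.06 between GelMA and TCP and -0.65 between GelMA-PSS and GelMA. The larger step thus lay between plastic and the plain hydrogel. Tpm2 and Tpm4 have representative transcripts of like length, 2175 and 2128 bases, but of unlike GC content, 55.1% and 45.9%. With the length and GC correction their log2 difference was -1.59 between GelMA-PSS and TCP, -1.07 between GelMA and TCP and -0.52 between GelMA-PSS and GelMA.

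Among the alpha-actinins, the share of Actn2 was 16.7% on TCP, 11.6% on GelMA and 7.06% on GelMA-PSS, while Actn3 kept 46.2%, 46.0% and 48.7%. Actn1 and Actn4 together took up the remainder, Actn4 going from 24.1% on TCP to 27.6% on GelMA-PSS. Counts of Actn2 per count of Actn1 and Actn4 came to 0.451, 0.272 and 0.159 in the same order, a log2 difference of -1.50 between GelMA-PSS and TCP (95% counting interval -1.53 to -1.47). For Actn3 the corresponding ratios were 1.25, 1.08 and 1.10, and the log2 difference between GelMA-PSS and GelMA was 0.03. These ratios of counts are not corrected for length. Corrected, the log2 ratios of GelMA-PSS against GelMA were -0.16 for Actn3, -0.19 for Actn1 and -0.03 for Actn4. No direction is therefore given for the difference of 0.03. Within the sarcomeric pair, Actn2 per count of Actn3 went from 0.361 on TCP to 0.252 on GelMA and 0.145 on GelMA-PSS. Actn2 and Actn3, with transcripts of 3013 and 2887 bases, thus differed from each other in how far they were lower on GelMA-PSS, by 0.80 on the log2 scale against GelMA and 1.32 against TCP.

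**Figure D4:**
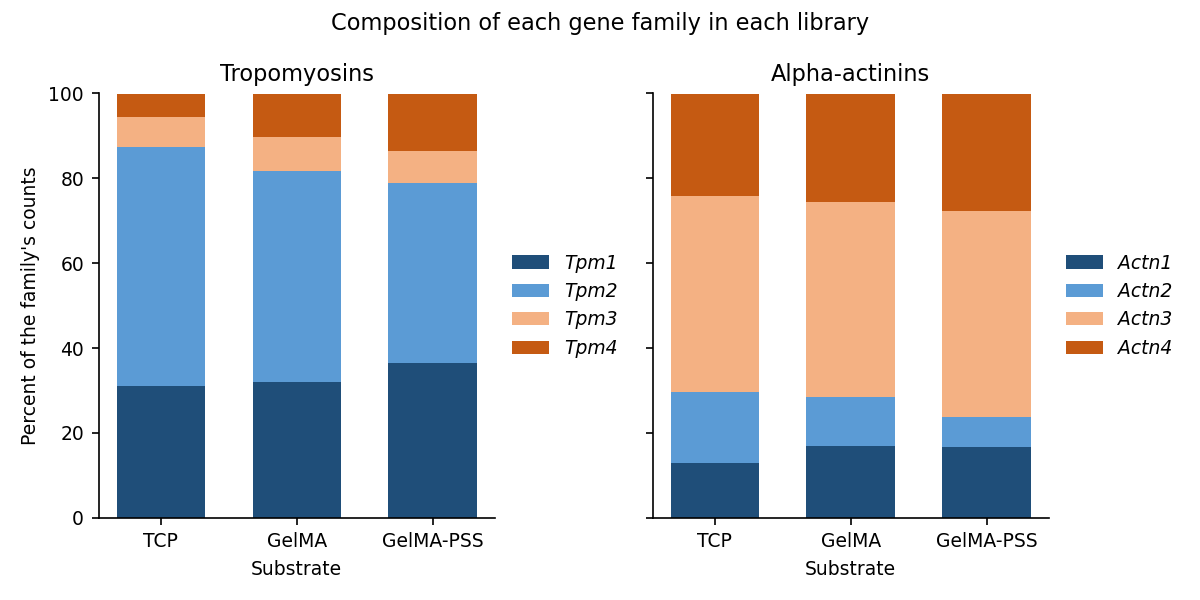
Share of each gene in the summed counts of its family (percent) in the TCP, GelMA and GelMA-PSS libraries. Tpm4 widens from 5.54% to 13.6% of the tropomyosins and Actn2 narrows from 16.7% to 7.06% of the alpha-actinins, while Actn3 holds 46.0% to 48.7%.

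Levels of different genes were compared per kilobase of transcript, as TPM, with 1 representative transcript per gene. On TCP the order was Tpm2 (3281), Tpm1 (2163), Actn3 (687), Tpm3 (406), Tpm4 (330.2), Actn4 (293), Actn2 (238) and Actn1 (149). On GelMA-PSS it was Tpm1 (1727), Tpm2 (1675), Tpm4 (552), Actn3 (391), Tpm3 (289.9), Actn4 (181), Actn1 (103) and Actn2 (54.3). Tpm4 thus stood below Actn3 on TCP and above it on GelMA-PSS, and Actn2 went from above Actn1 to the lowest place. On GelMA, Actn1 (176) and Actn2 (149.5 to 154 over its annotated transcript lengths) were neighbours at the low end, and Tpm4 (478) lay below Actn3 (620.1). The annotated lengths of Tpm1 run from 887 to 2890 bases, which spans a TPM of 1365 to 4449 on TCP, so Tpm1 and Tpm2 cannot be ranked against each other in any library. Tpm3, with a span of 406 to 832 on TCP and 289.9 to 594 on GelMA-PSS, cannot be ranked against Actn3 in those libraries. Tpm3 was above Tpm4 on TCP, but its span of 358 to 733 on GelMA and that on GelMA-PSS include the level of Tpm4.

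The genes whose pattern over the 3 libraries lay nearest to these members were sought among the genes with a mean CPM of 10 or more, by the Euclidean distance of centred log2(CPM + 1) values. For Actn2 they were Als2cl, Pgap1, Myh3, Myh1 and Mylk4, at distances of 0.02 to 0.09. Myh3 and Myh1 encode the embryonic and a fast myosin heavy chain of the sarcomere. Their transcripts have 6031 and 6081 bases, and after the correction their log2 ratios against GelMA were -0.61 and -0.62, smaller in size than the -0.95 of Actn2. Those of Als2cl, Pgap1 and Mylk4, with transcripts of 5150, 10583 and 5571 bases, were -0.64, -0.23 and -0.84, also smaller in size. For Tpm4 the nearest genes were Clybl, Stard3nl, Epha1, Cdca8 and Emp1, at distances of 0.01 to 0.05. After the correction the log2 ratios of Clybl, Stard3nl and Cdca8 against GelMA were 0.22, 0.15 and 0.32, below the 0.42 of Tpm4. Those of Epha1 and Emp1 were 0.75 and 0.48, above it. Emp1, which encodes an epithelial membrane protein, had a CPM of 267 on TCP, 384 on GelMA and 584 on GelMA-PSS. With 3 points per gene, a like pattern says nothing of shared control.

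The proteins that work with tropomyosin and alpha-actinin were described by lists of genes of known function. Among the actins, of which the filaments consist, the muscle and cytoplasmic genes differed in sign on GelMA-PSS against TCP. There the skeletal, cardiac and smooth muscle genes Acta1, Actc1 and Acta2 had log2 ratios of -0.29, -0.53 and -0.21, or -0.52, -0.81 and -0.37 with the correction. The cytoplasmic genes Actb and Actg1 had 0.77 and 1.08, or 0.59 and 0.91 with the correction. Plain GelMA against TCP had the same split, with and without the correction. Its log2 ratios were -0.20, -0.45 and -0.35 for Acta1, Actc1 and Acta2, and 0.48 and 0.51 for Actb and Actg1. On GelMA-PSS against GelMA the split did not hold with TMM scaling. Acta1 and Actc1 had -0.09 and -0.08, but Acta2 had 0.13, the sign of Actb (0.29) and Actg1 (0.57). With the correction the split was present in that contrast. Acta1, Actc1 and Acta2 then had -0.38, -0.42 and -0.10, and Actb and Actg1 had 0.05 and 0.36. Of the 5 actins, Actg1 was the gene past 2-fold against TCP, beside 6.85% of all genes, and with the correction it no longer passed. It went from a CPM of 1214 on TCP through 1728 on GelMA to 2562 on GelMA-PSS. Against GelMA 0 actins passed. The 8 troponin genes, whose products sit on tropomyosin in the sarcomere, had a median log2 ratio of 0.26 between GelMA-PSS and GelMA, -0.29 between GelMA-PSS and TCP and -0.55 between GelMA and TCP, and 0 of them passed 2-fold in any contrast with TMM scaling. Tnni3, the cardiac inhibitory troponin, was the troponin gene higher on GelMA-PSS than in both controls, at a CPM of 2.41 on TCP, 1.53 on GelMA and 2.54 on GelMA-PSS. With the correction that direction was lost, its log2 ratios being -0.0013 against GelMA and -0.35 against TCP. The corrected troponin median on GelMA-PSS was -0.26 relative to GelMA and -0.71 relative to TCP. In the latter contrast Tnnc2, the fast-fibre troponin C, then passed 2-fold at -1.06, beside 314 of 13060 genes lower. Of the tropomodulin and leiomodin genes, which cap or elongate the pointed ends of tropomyosin-coated filaments, 6 of 7 were tested and 0 passed 2-fold with TMM scaling. Lmod2 and Lmod3 had log2 ratios of -0.91 and -0.90 on GelMA-PSS against TCP, and of -0.69 and -0.78 on GelMA against TCP. Corrected, those on GelMA-PSS were -1.09 and -1.05, so that both genes then passed 2-fold, beside the same 314 of 13060 genes. Tmod4 and Lmod1 were scarce, with a CPM of 0.961 and 6.50 on GelMA-PSS. All 3 genes of the barbed-end capping protein, Capza1, Capza2 and Capzb, were higher on GelMA-PSS than in both controls, by log2 ratios of 0.22 to 0.50 against GelMA, and by 0.10 to 0.13 after the correction. Of all genes, 45.3% were higher than in both controls, so the count of 3 is not read as a result about the capping protein.

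Among 20 tested genes of the sarcomeric Z-disc, where Actn2 and Actn3 act, 9 were lower by 2-fold on GelMA-PSS than on TCP and 0 were higher, against the 3.13% and 3.72% of all genes given above. With the correction 6 were lower, 4 of the 9 (Neb, Synpo2l, Tcap and Xirp2) together with Myoz2 and Csrp3, beside 314 of 13060 genes. Against GelMA 3 were lower, beside 2.33% of all genes, and the same 3 genes, Ttn, Neb and Flnc, were lower than in both controls. These encode giant or very long scaffold proteins with transcripts of 106824, 22489 and 9038 bases. Their log2 ratios against GelMA, -2.43, -2.12 and -1.02, became 0.24, -0.69 and -0.20 with the correction. That left 0 genes of the list past 2-fold against both controls. The transcripts of Ttn and Neb are far longer than the median of 2914 bases, so their corrected ratios rest on the far end of the loess fit. The median of the list was -0.37 against GelMA and -0.85 against TCP, or -0.29 and -0.75 with the correction. Xirp1, which encodes an actin-binding Xin repeat protein, had a CPM of 146 on TCP, 105 on GelMA and 58.9 on GelMA-PSS. Tcap, the titin cap, was the gene of the list lower by 2-fold on GelMA than on TCP with TMM scaling, beside 0.296% of all genes. Its CPM was 35.5 on TCP, 14.8 on GelMA and 11.5 on GelMA-PSS. With the correction Tcap (-1.15) and Xirp2 (-1.01) were lower by 2-fold on GelMA than on TCP, beside 34 of 13060 genes.

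Among 29 tested genes of adhesions and stress fibres, where Actn1 and Actn4 act, 9 were higher and 15 lower on GelMA-PSS than in both controls, as were 45.3% and 39.3% of all genes. Their median log2 ratio was -0.05 for GelMA and -0.12 for TCP as the control, and the latter became 0.01 with the correction. Against TCP 3 genes were higher by 2-fold (Csrp1, Tagln2 and Tes) and 1 lower (Palld), beside 3.72% and 3.13% of all genes, and against GelMA 2 were lower (Tln2 and Lpp), beside 2.33%. With the correction the 3 higher genes still passed and the 3 lower genes did not. Of 13060 genes, 264 were then higher and 314 lower against TCP, and 157 lower against GelMA. The ratio of Lpp against GelMA, with a transcript of 15459 bases, went from -1.08 to -0.03. Csrp1, which encodes a LIM protein that binds alpha-actinin, had a CPM of 144 on TCP, 186 on GelMA and 337 on GelMA-PSS. Its log2 ratio of 1.22 against TCP became 1.07 with the correction, and that of 0.86 against GelMA became 0.65. Cnn2, a calponin of the actin cytoskeleton, had a CPM of 182.6, 198 and 352 in the same order. Tln2, one of the talins that link integrins to actin, had 77.4, 99.2 and 45.4, and its log2 ratio of -1.11 against GelMA became -0.39 with the correction. Palld, the alpha-actinin binding protein palladin, had a CPM of 365, 283 and 164, with a log2 ratio of -1.15 against TCP that became -0.81.

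**Figure D5:**
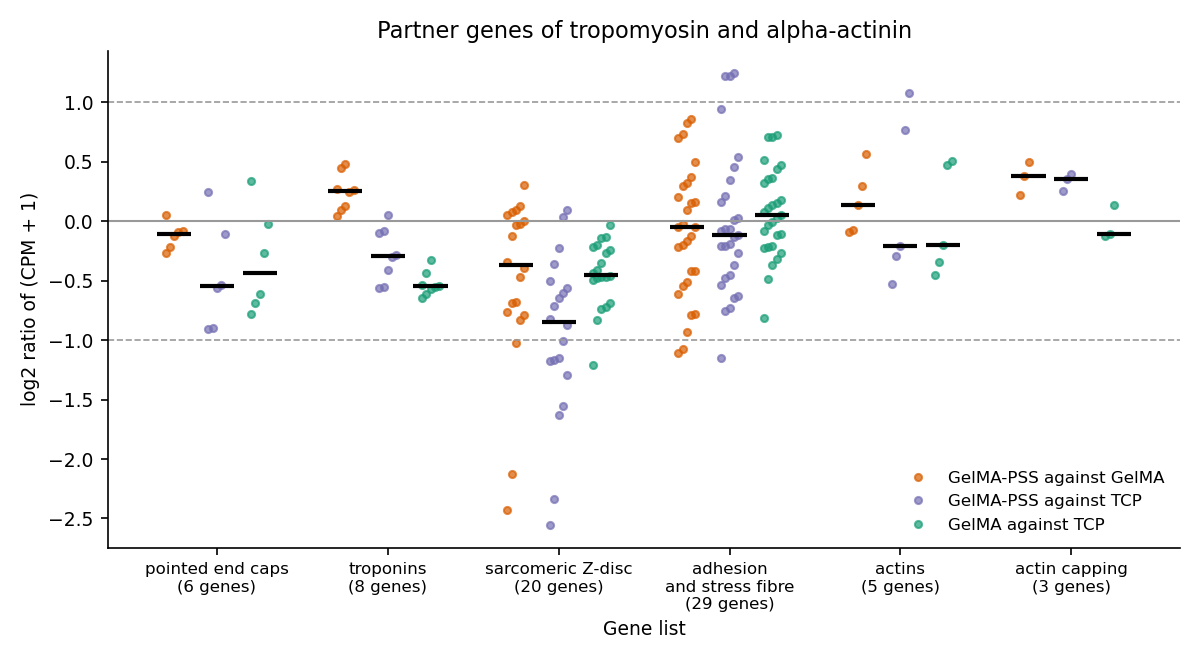
Log2 ratio of (CPM + 1) for each tested gene of 6 partner lists (points) in the 3 contrasts, with the median of each list as a black bar and dashed lines at 2-fold. The Z-disc list has the lowest median against TCP (-0.85), with Ttn and Neb farthest down, while the adhesion and stress fibre genes spread on both sides of 0.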

How the data were processed

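The authors deposited raw RNA-seq counts per gene symbol, 1 library per substrate, with no normalization. How many cultures supplied the RNA of each library is not given in the sources used here. The submitters' processing notes name TopHat, edgeR and the builds mm10 and hg19, without roles. The counting tool, annotation and strand setting are not given in the sources used here. The methods name a TruSeq kit and strand-specific paired-end reads, and the labels a SMARTER kit. Whether 1 or both mates of a read pair were counted is not known, and in the latter case the counting intervals are too narrow.

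Lines that share a symbol (35 symbols) were summed. TMM factors (1.02, 1.04 and 0.943 for TCP, GelMA and GelMA-PSS) came from edgeR 4.0.16, and size factors from DESeq2 1.42.0. The methods define differences by FPKM, 2-fold and a p-value, and the results section of the study names 1.5-fold, which was used as an alternative threshold. CPM took the place of FPKM here, and no test was possible. A count of 3, taken as the detection floor, corresponds to a CPM of 0.0166 to 0.033. Lengths and GC content were taken from GENCODE vM21 (GRCm38), from the transcript with the longest coding sequence, with 22197 symbols matched directly, 669 through synonyms and 372 not matched. TPM was computed from the counts and these lengths. The correction subtracted successive loess fits (span 0.3, statsmodels 0.14.6). Promoters came from RefSeq and were read over 250 bases. The calls were tried on simulated Poisson counts with planted changes larger than 2-fold and without scaling factors, and the correction on a simulated trend. Those simulations do not bear on the scaling, on spread between cultures or on calls near 2-fold. The members, lists and rules were chosen with earlier results of these data known. Named were all members, the 5 nearest patterns of members past 2-fold, and from each list up to 4 genes outside the range of both controls with the largest difference from the nearer one. Lpp, Tagln2, Tes, Tcap, Synpo2l, Xirp2, Myoz2, Csrp3 and Tnnc2 were named for passing a threshold, after their values were seen. Acta2 was named to complete the actins. Alternatives covered scaling, pseudocount, filter, threshold and the correction.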

Additional observations from a re-analysis of the deposited data

How the results depend on the processing

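No paired analysis was possible because each substrate has 1 library. Under 8 alternatives in scaling, pseudocount, filter and length correction, 5 of 192 ratios of members changed sign. These were in Tpm1 against TCP and in Tpm2 and Tpm3 against GelMA, with total counts or the correction, and none was past 2-fold. A pseudocount or a filter cannot change the sign of a ratio, so only the settings of scaling and correction bore on this count. Members past 2-fold between GelMA-PSS and TCP stayed at 2 with the other scalings, pseudocounts and filters, and were 1 (Actn2) with the length and GC correction. In the contrast of GelMA-PSS with GelMA, and lower than in both controls, 1 member (Actn2) passed with total counts, with upper quartile factors (log2 ratio -1.0007) and with TPM, an alternative chosen after seeing the data, whose ratios were taken relative to the median of all genes because it moved that median to -0.37 and -0.32 against GelMA and TCP. At 1.5-fold, 2 members passed in the contrast of the hydrogels and 1 in that of GelMA with TCP, and 1 was higher and 1 lower than in both controls.

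The median log2 ratio of the tropomyosins for GelMA-PSS against GelMA, GelMA-PSS against TCP and GelMA against TCP was 0.16, -0.10 and -0.26 with total counts (which moved the median of all genes to -0.10 and -0.06 in the first and second contrast), 0.075, -0.16 and -0.25 with the correction and 0.21, -0.084 and -0.28 with TPM. With upper quartile factors it was 0.30 in the first and -0.29 in the last contrast. For the alpha-actinins it was -0.39, -0.44 and -0.11 with total counts, -0.35, -0.43 and -0.14 with TPM, -0.18 and -0.26 in the first and second contrast with the correction, and -0.26 and -0.14 in the first and last with upper quartile factors. The sign of the tropomyosin median against TCP thus depended on the setting. The share of Tpm4 on GelMA-PSS minus TCP, 8.10 percentage points, was 7.67 per kilobase, and that of Actn2, -9.65, was -9.97. Ratios of members within a library do not involve the scaling between libraries.

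Over all genes, 233 were higher and 307 lower by 2-fold on GelMA-PSS than on GelMA, and these counts were 120 and 506 with total counts, 140 and 158 with a pseudocount of 5, and 87 and 157 with the correction. Relative to TCP, 490 and 412 became 273 and 196 with a pseudocount of 5 and 264 and 314 with the correction. On GelMA relative to TCP, 93 and 39 became 171 and 88 with a pseudocount of 0.25, 30 and 15 with 5, and 56 and 24 among genes that reached a CPM of 10. The members had at least 19700 counts per library. Replicate spread could not be measured, and leaving out a library was not possible.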
